A study of Mus musculus with 4 samples.

Results

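The claudins and occludin of the gland epithelium were examined in salivary glands (SGs) of mice with and without Myd88, the adaptor protein that carries signals from most Toll-like receptors and from the interleukin-1 receptor family. The members were 10 genes taken by name, namely Cldn1, Cldn2, Cldn3, Cldn4, Cldn5, Cldn7, Cldn8, Cldn10, Cldn12 and Ocln, out of 34844 genes named on the array. They had 14 probes with 1 spot each, of 55681 probes in all. Total RNA was measured on 4 1-colour Agilent arrays, of which 2 are labelled Myd88-null (here Myd88-/-) and 2 wild-type (Myd88+/+), all from female C57/BL6 mice of 10 weeks. The labels give the RNA as that of submandibular (SMG) and sublingual (SLG) glands together, after dissection that took away lymph nodes, connective tissue and fat, whereas the study's text names whole SMGs for its arrays. Whether SLGs are part of each value is therefore not settled. The array legends of the study also give more samples per genotype than the arrays labelled here. The deletion is not described as limited to any cell type. The null mice had been backcrossed to this strain, and heterozygous parents gave the mice compared. The labels do not say whether a sample is 1 animal or a pool, so that error terms cover the spread between these arrays, which may be technical.

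Claudins are membrane proteins with 4 transmembrane segments that line up with claudins of the neighbouring cell to form the strands of the tight junction. Some, such as Cldn1, Cldn3, Cldn4, Cldn5 and Cldn8, are known mainly for sealing the path between cells, whereas Cldn2 and Cldn10 are known to form channels for small ions. Occludin lies in the same strands without being needed to build them. In SGs, these proteins separate the lumen of acini and ducts from the tissue and help set which ions and how much water pass into saliva, and Cldn5 is best known from the endothelium of blood vessels.

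Each value is the log2 intensity of a probe minus the 75th percentile of its array, so that 0 is the brightness of the 75th percentile spot, and levels of different probes cannot be set against each other. Values of a genotype are given in the order of its arrays 1 and 2. A difference is the mean of the Myd88-/- arrays minus that of the Myd88+/+ arrays, with its standard error (SE) and 95% interval from limma, a linear model with variances moderated across genes. The share of probes that stood well above background was 52.2% on Myd88-/- array 1, 68.4% on Myd88-/- array 2, 74.1% on Myd88+/+ array 1 and 55.1% on Myd88+/+ array 2. All 4 arrays lay on 1 slide and came from 1 scan. The Myd88 probe was not lower on the arrays labelled Myd88-/- (log2 difference 0.35, limma adjusted p = 0.264). The deleted exons are not given in the sources used here, so this probe cannot check the labels, and directions below follow the labels. Keratins Krt8 and Krt18 and the acinar water channel Aqp5 were well above background on all 4 arrays. This checks for gland epithelium only and does not settle which glands were taken.

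The sequences printed here are those before start sites of the members whose arrays did not overlap between the genotypes. That of a probe which lies in one of them is given further below. RefSeq (GRCm38.p6) start sites matched 9 of the 10 members, all but Cldn8. The upstream starts of Cldn7 and Cldn10 are not printed, and their windows held 0 matches to the motifs named below. Each line gives the 250 bases that end at a start site, with capitals on matches, on either strand, to the GC box (GGGCGG), the E box read by Snail and Zeb repressors (CACCTG), the AP-1 element (TGANTCA) or the TATA box (TATAAA).
Cldn1 (chr16:26371840-26372089, minus strand): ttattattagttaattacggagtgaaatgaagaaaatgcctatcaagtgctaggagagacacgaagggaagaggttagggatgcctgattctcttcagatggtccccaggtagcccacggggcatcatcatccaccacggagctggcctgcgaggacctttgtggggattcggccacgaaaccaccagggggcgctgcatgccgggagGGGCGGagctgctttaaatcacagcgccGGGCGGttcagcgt
Cldn3 (chr5:134985964-134986213, plus strand): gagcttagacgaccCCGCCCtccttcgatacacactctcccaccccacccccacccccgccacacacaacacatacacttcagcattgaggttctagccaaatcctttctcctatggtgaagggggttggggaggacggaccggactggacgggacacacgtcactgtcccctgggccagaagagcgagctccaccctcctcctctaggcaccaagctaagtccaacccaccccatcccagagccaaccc
Cldn4 (chr5:134946935-134947184, minus strand): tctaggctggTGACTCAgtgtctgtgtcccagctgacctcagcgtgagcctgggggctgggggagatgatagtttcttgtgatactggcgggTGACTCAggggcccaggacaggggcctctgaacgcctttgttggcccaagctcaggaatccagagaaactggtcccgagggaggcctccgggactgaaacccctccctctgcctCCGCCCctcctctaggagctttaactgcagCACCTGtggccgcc
Cldn7, downstream start (chr11:69965171-69965420, plus strand): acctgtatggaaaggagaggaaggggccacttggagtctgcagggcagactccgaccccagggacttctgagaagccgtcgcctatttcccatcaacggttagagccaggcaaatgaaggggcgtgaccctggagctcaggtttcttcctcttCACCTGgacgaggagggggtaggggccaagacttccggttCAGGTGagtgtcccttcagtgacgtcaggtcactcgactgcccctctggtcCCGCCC
Cldn10, downstream start (chr14:118854700-118854949, plus strand): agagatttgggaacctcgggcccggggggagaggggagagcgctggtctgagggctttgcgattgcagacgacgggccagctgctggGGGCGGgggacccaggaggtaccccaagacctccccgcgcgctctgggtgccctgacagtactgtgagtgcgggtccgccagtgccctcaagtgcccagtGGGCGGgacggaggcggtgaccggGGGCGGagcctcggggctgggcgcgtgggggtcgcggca
Cldn5 (chr16:18776597-18776846, plus strand): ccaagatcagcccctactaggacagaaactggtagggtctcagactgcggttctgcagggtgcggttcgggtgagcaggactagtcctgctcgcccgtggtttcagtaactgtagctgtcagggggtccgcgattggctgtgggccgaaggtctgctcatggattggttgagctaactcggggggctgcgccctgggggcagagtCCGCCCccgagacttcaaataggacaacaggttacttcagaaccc

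The GC box was found 2 times before Cldn1, 3 times before the downstream start of Cldn10, and 1 time each before Cldn3, Cldn4, Cldn5 and the downstream start of Cldn7, and it was also present before Cldn12 and Ocln. It is common, being present in 32.7% of 32851 RefSeq windows of this length. The AP-1 element was found 2 times before Cldn4 and before no other member, against 6.75% of all windows with at least 1. The E box was found 1 time before Cldn4, 2 times before the downstream start of Cldn7 and 2 times before a start of Ocln, against 17.2% of all windows. The TATA box was found 1 time, before Cldn2, against 12.4% of all windows. The NF-kB motif, searched because Myd88 acts through this factor, had no match in these windows and one in 3.90% of all windows. These are matches of letters only.

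Among the members, 9 of 10 could be tested, and each of these was well above background on all 4 arrays. Cldn1, Cldn3, Cldn4, Cldn7 and Cldn10 were higher on both Myd88-/- arrays than on both Myd88+/+ arrays, and Cldn5 was lower on both. Cldn8, Cldn12 and Ocln overlapped between the genotypes. After adjustment over all 22317 genes tested, 0 members passed limma's threshold of 0.05. Of all genes, 0 (0%) passed it, the smallest adjusted p being 0.194. At an unadjusted p under 0.05 there were 3 members, Cldn1, Cldn7 and Cldn10, all higher, where 16.6% of all genes passed, 9.81% higher and 6.83% lower. Arrays did not overlap for 6 members, against 51.9% of all genes. Of these members 5 were higher, against 33.2% of all genes, and 1 was lower, against 18.7%. The median difference of the 9 members was 0.29 and that of all genes tested was 0.06. Of the other tools, the methods' t-test called 0 members after adjustment, and limma with trended and robust moderation called 1, Cldn10 (adjusted p = 0.0387), among 482 genes.

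**Figure D1:**
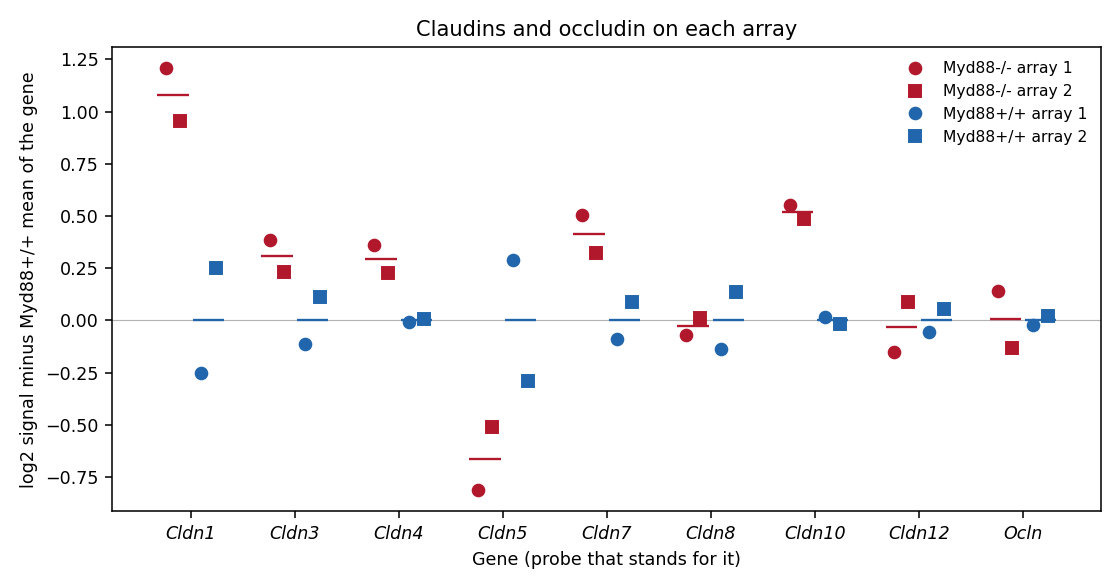
Log2 signal of the probe that stands for each of the 9 tested genes on each array, minus the mean of the 2 Myd88+/+ arrays for that gene; red symbols are Myd88-/- and blue symbols Myd88+/+ arrays, and bars are means. The red symbols of Cldn1, Cldn3, Cldn4, Cldn7 and Cldn10 lie above both blue ones, those of Cldn5 lie below, and those of Cldn8, Cldn12 and Ocln are mixed with them.

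Cldn1, a sealing claudin whose loss in the mouse skin abolishes its water barrier, had the largest difference of the members. Its probe (chr16:26357372-26357431 in NCBI37/mm9, minus strand) starts at base 2541 of the transcript. The log2 signal was -0.61 and -0.86 on the Myd88-/- arrays against -2.07 and -1.57 on the Myd88+/+ arrays. Both Myd88-/- arrays were thus above both Myd88+/+ arrays, and the Myd88+/+ arrays lay further from each other than the Myd88-/- arrays did. The difference was 1.08 (SE 0.23, 95% interval 0.43 to 1.73), a ratio of 2.11, with a limma adjusted p of 0.209. Over the 4 arrays, the patterns closest to that of Cldn1 by Euclidean distance of centred log2 values belonged to 2 probes for long intergenic RNAs and 1 probe without a gene name, at distances of 0.075, 0.17 and 0.13, while 310 genes lay within 0.5.

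Cldn10 forms ion channels in secretory epithelia and is made from alternative first exons, of which RefSeq lists 2. Its probe (chr14:119273459-119273518 in NCBI37/mm9, plus strand) starts at base 657 of the transcript, and its sequence is shown because it gave the most even values among the members that were higher on both Myd88-/- arrays.
Cldn10 probe: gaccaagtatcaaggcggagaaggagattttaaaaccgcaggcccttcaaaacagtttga
The log2 signal was 6.0 and 5.94 on the Myd88-/- arrays against 5.47 and 5.43 on the Myd88+/+ arrays. Within each genotype the arrays were close together, and the gap between genotypes was wider than either spread. The difference was 0.52 (SE 0.10, 95% interval 0.24 to 0.80), a ratio of 1.43, with a limma adjusted p of 0.204. One probe cannot tell which of the first exons was used.

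Cldn7, a claudin found along the sides of epithelial cells as well as at the junction, had 2 probes. The bright one (chr11:69781255-69781314 in NCBI37/mm9, plus strand, base 1177 of the transcript) had log2 signals of 4.25 and 4.07 on the Myd88-/- arrays against 3.66 and 3.83 on the Myd88+/+ arrays. The genotypes did not overlap. The difference was 0.41 (SE 0.13, 95% interval 0.04 to 0.79), a ratio of 1.33, with a limma adjusted p of 0.275.

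The other Cldn7 probe (chr11:69778772-69778831 in NCBI37/mm9) starts at base 446 of its transcript and was well above background on Myd88-/- array 2 and Myd88+/+ array 1 alone, so it was not tested. Its 60 bases were found whole, on the same strand, in the window printed above for the downstream start, 151 to 92 bases before that start.
Cldn7 upstream probe: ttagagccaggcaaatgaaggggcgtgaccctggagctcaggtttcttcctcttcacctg
A transcript from the downstream start would not hold this stretch, whereas one from the upstream start could. The dim probe and the bright probe thus report on different stretches of Cldn7, and their levels are not compared.

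Cldn3 and Cldn4 are neighbouring genes, with probes 41.1 kb apart on chromosome 5, and both are known as receptors of a clostridial enterotoxin. The Cldn3 probe (chr5:135463284-135463342, plus strand, base 1200) had log2 signals of 4.43 and 4.28 on the Myd88-/- arrays against 3.94 and 4.16 on the Myd88+/+ arrays. The lower Myd88-/- array was only just above the higher Myd88+/+ array. The difference was 0.31 (SE 0.14, 95% interval -0.08 to 0.70), with a limma adjusted p of 0.366.

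Cldn4 was measured by 2 probes that were both well above background on all arrays. The one that stands for the gene (chr5:135421347-135421406, minus strand, base 1398) had log2 signals of 0.58 and 0.45 on the Myd88-/- arrays against 0.22 and 0.23 on the Myd88+/+ arrays. The difference was 0.29 (SE 0.11, 95% interval -0.01 to 0.60), with a limma adjusted p of 0.311. The other probe (chr5:135422135-135422194) starts at base 610, and its sequence is given because it measured the same direction from another stretch of the transcript.
Cldn4 second probe: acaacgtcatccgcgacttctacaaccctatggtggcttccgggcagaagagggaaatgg
It read 0.68 and 0.38 on the Myd88-/- arrays against 0.16 and 0.14 on the Myd88+/+ arrays, a difference of 0.38. On both Cldn4 probes the genotypes did not overlap.

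Cldn5, the main claudin of vascular endothelium, was the one member lower on both Myd88-/- arrays. Its probe (chr16:18778046-18778105, plus strand, base 1106) had log2 signals of -0.27 and 0.03 on the Myd88-/- arrays against 0.84 and 0.25 on the Myd88+/+ arrays. Myd88-/- array 2 and Myd88+/+ array 2 lay closest to each other, and Myd88+/+ array 1 stood highest. The difference was -0.66 (SE 0.26, 95% interval -1.40 to 0.07), with a limma adjusted p of 0.330.

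Cldn8, a sealing claudin of ducts, read 2.84 and 2.92 on the Myd88-/- arrays against 2.77 and 3.04 on the Myd88+/+ arrays. Both Myd88-/- values lay between the Myd88+/+ values, and the difference was -0.03 (95% interval -0.43 to 0.37, limma adjusted p = 0.943). Cldn12, a claudin that lacks the usual C-terminal motif for binding scaffold proteins, read 1.38 and 1.62 on the Myd88-/- arrays against 1.47 and 1.58 on the Myd88+/+ arrays. There both Myd88+/+ values lay between the Myd88-/- values, and the difference was -0.03 (95% interval -0.42 to 0.35, limma adjusted p = 0.928).

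Ocln read -0.30 and -0.57 on the Myd88-/- arrays against -0.46 and -0.42 on the Myd88+/+ arrays. The Myd88-/- arrays lay on either side of both Myd88+/+ arrays. The difference was 0.01 (95% interval -0.39 to 0.40, limma adjusted p = 0.986). Its second probe, which starts at base 3070, read -3.11 and -3.46 on the Myd88-/- arrays against -3.26 and -2.66 on the Myd88+/+ arrays, also with overlap. The difference of that probe was -0.33 (SE 0.27). The intervals of the probes that stand for Cldn8, Cldn12 and Ocln leave room for log2 differences of up to about 0.43 in size.

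Cldn2, a channel for cations and water in leaky epithelia, was the member that could not be tested. Both of its probes (bases 2382 and 1027 of the transcript, chromosome X) were well above background on Myd88-/- array 2 and Myd88+/+ array 1 and on neither of the others. The first read -6.20 and -3.70 on the Myd88-/- arrays against -3.76 and -4.30 on the Myd88+/+ arrays. The second read -6.26 and -3.42 on the Myd88-/- arrays against -4.48 and -6.62 on the Myd88+/+ arrays. The arrays on which Cldn2 and the upstream Cldn7 probe stood above background are those with the larger shares of probes above background, 68.4% and 74.1%, and no direction can be read from either.

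**Figure D2:**
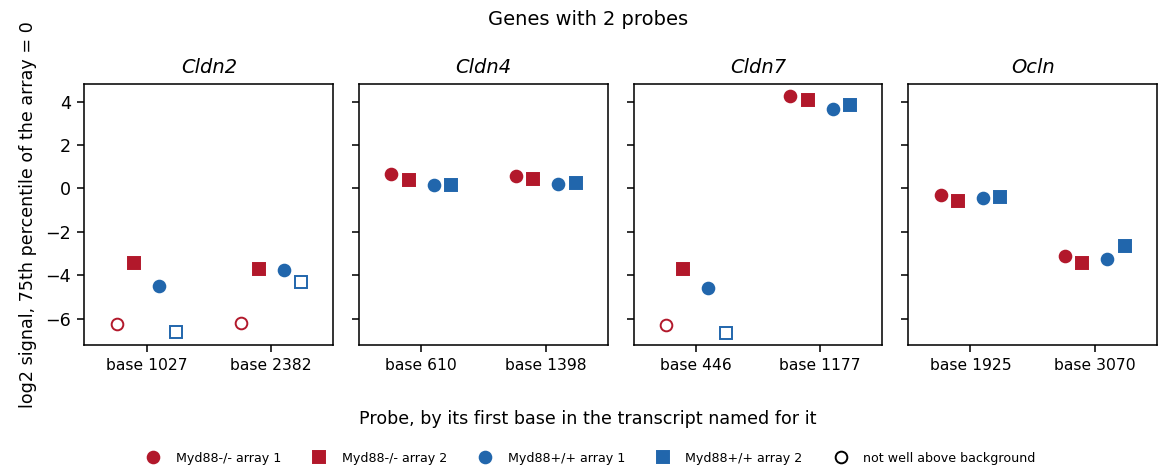
Log2 signal of both probes of Cldn2, Cldn4, Cldn7 and Ocln on each array, by the first base of the probe in its transcript; filled symbols are well above background, hollow ones are not, and levels of different probes are not comparable. Both Cldn2 probes and the Cldn7 probe at base 446 are filled on Myd88-/- array 2 and Myd88+/+ array 1 alone, whereas both Cldn4 probes have the Myd88-/- arrays above the Myd88+/+ arrays.

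The rest of the claudin family gives the setting of these values. The array named 27 genes Cldn or Cldnd, of which 18 are not members. Of these, 10 were tested, 6 were well above background on all 4 arrays and 3 on none. At an unadjusted p under 0.05 with limma, 1 was higher and 2 were lower, against 9.81% and 6.83% of all genes, and 0 passed after adjustment. Cldnd1, a claudin domain protein, was higher by 0.29 (limma adjusted p = 0.299). Cldn19, a claudin of kidney and nerve sheath, was not well above background on either Myd88-/- array, so its fold was not measured. Read as it stands, its difference was -0.56 (limma adjusted p = 0.204). With dim values raised to the lowest level well above background, where that was higher, Cldn19 was 1.40-fold lower. It was tested only because it was well above background on both Myd88+/+ arrays, so its place among the 2 lower genes rests on that filter. Cldn22, a little studied claudin, had the widest gap of the 19 tested genes of the family and occludin. It read 2.97 and 1.16 on the Myd88-/- arrays against 4.84 and 4.60 on the Myd88+/+ arrays. The genotypes did not overlap, but the Myd88-/- arrays differed widely from each other, and the difference was -2.66 (SE 0.68, limma adjusted p = 0.233).

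**Figure D3:**
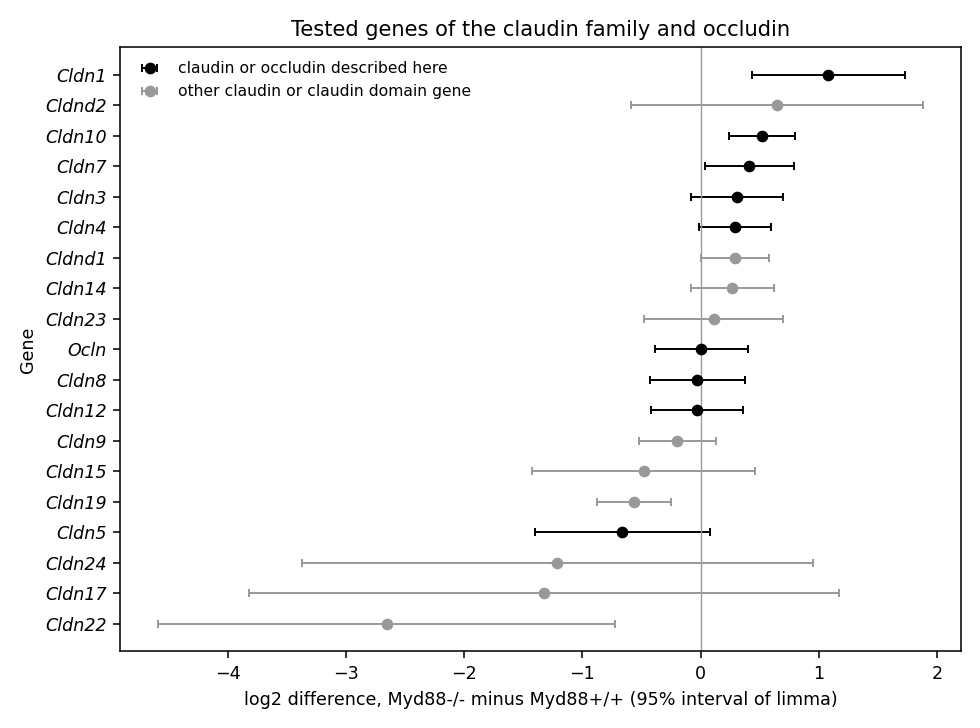
Log2 difference of Myd88-/- minus Myd88+/+ arrays for the 19 tested genes of the claudin family and occludin, with the 95% interval of limma; black points are the members and grey points the other genes. The intervals of Cldn1, Cldn7, Cldn10 and Cldnd1 lie above 0, those of Cldn19 and Cldn22 lie below, and Cldn17, Cldn19 and Cldn24 were not well above background on the Myd88-/- arrays, so that their points are no measured fold.

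Genes that work beside the claudins were read from lists. At an unadjusted p under 0.05 with limma, 9.81% of all genes tested were higher and 6.83% lower. Of 28 tested scaffold, polarity and other membrane genes of the tight junction, 4 were higher and 1 was lower at an unadjusted p under 0.05, and the median difference was 0.07 against 0.06 over all genes. Tjp3, which links claudins to actin, was higher by 0.77, with 3.93 and 3.74 on Myd88-/- arrays and 2.92 and 3.21 on Myd88+/+ arrays. The angiomotin relative Amotl1 was higher by 0.72 and the polarity gene Crb3 by 0.46, while the adhesion molecule Jam3 differed by -0.65. Csda, named after its value was seen because it completes the count, was higher by 0.41. The limma adjusted p of these 5 genes was 0.203 or more. Tjp1, a scaffold that claudins bind in most epithelia, differed by -0.19 (limma adjusted p = 0.528).

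Other junctions were measured the same way, beside the same shares of all genes (9.81% higher, 6.83% lower). Of 12 tested adherens junction genes, 0 were higher and 1, the nectin Pvrl3, was lower at an unadjusted p under 0.05 (-0.40), with a list median of 0.17. Of 9 tested desmosome genes, 2 were higher, Perp by 0.43 and Pkp3 by 0.31, and the median was 0.23. Among 10 partners and proteases of claudins, such as Epcam and the matriptase gene St14, 0 were called in either direction at an unadjusted p under 0.05, with a median of 0.10. Among 17 regulators of the epithelial barrier, 1 was higher and 1 was lower. These were Ehf, an epithelial ETS factor, at 0.54, and Zeb1, a repressor of epithelial genes, at -0.78, and the list median was 0.03. The list pools repressors of epithelial genes with other regulators, so its median can hide opposite directions. Of its genes, 9 had a difference above 0 and 8 below 0.

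Markers of cell types and of neighbouring tissues were read on the same arrays, and 0 of them passed the adjusted threshold. The counts below are at an unadjusted p under 0.05 with limma, where 9.81% of all genes were higher and 6.83% lower. Of 8 epithelial markers, 3 were higher at an unadjusted p under 0.05, namely Krt8 (0.68), Krt18 (0.54) and Krt7 (0.37). Krt19, named after its value was seen, had a difference of -0.28 without overlap. The mean log2 level over the list was 3.44 and 3.37 on the Myd88-/- arrays against 3.1 and 3.25 on the Myd88+/+ arrays. Of 10 SMG acinar markers, 8 were higher, with a median of 0.36 that was 0.082 with quantile normalization. Of 10 duct ion transport genes 3 were higher and 0 lower, and of 9 basal and myoepithelial markers 0 were called in either direction at that p. Their medians were -0.04 and -0.03, and both turned with the array left out. Without Myd88+/+ array 1 they were -0.19 and -0.24, and without Myd88+/+ array 2 they were 0.16 and 0.13. In the other direction, the mean level of 12 skeletal muscle markers was -3.06 and -2.91 on the Myd88-/- arrays but 0.50 and 2.47 on the Myd88+/+ arrays, and 11 of them were lower, with a median of -4.36 that was -2.34 with normexp. Of 7 B cell markers 6, of 10 T cell markers 6, of 9 adipocyte markers 3 and of 6 parotid markers 3 were lower, with medians of -2.06, -2.78, -0.84 and -1.84. These sizes were not steady. The B cell median was -1.05 with normexp and -0.90 with either other filter on dim probes, and the T cell median was -1.33 with normexp. With only probes well above background on all 4 arrays tested, the muscle median was -3.45 and the T cell median -1.86. The adipocyte median was -0.38 without Myd88-/- array 1, and the parotid median was -0.95 without Myd88-/- array 2. Among these genes, 7 of 12 muscle, 5 of 7 B cell and 6 of 10 T cell markers were well above background on all 4 arrays. The others were tested because they were well above background on both arrays of a single genotype, so their differences rest partly on that filter. Of 10 granular convoluted tubule and 4 sublingual gland markers, 0 were called in either direction at an unadjusted p under 0.05. Their medians were -0.05 and 0.07. Of 9 macrophage markers 1 was higher, and of 8 Schwann cell markers 2 were lower, with medians of -0.01 and -0.13. The tubule, sublingual and macrophage medians turned with the array left out, and the Schwann cell median ran from -0.33 to -0.04. The part of any of these tissues and cell types in the claudin values was not tested. In whole glands, fewer cells of a type, less RNA per cell and an unequal share of neighbouring tissue in the samples cannot be told apart.

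Set against the mean of the 8 epithelial markers on each array, an alternative chosen after the data were seen, Cldn1 differed by 0.85, Cldn10 by 0.29, Cldn7 by 0.18, Cldn3 by 0.08 and Cldn4 by 0.06. The direction of these 5 genes was kept, all 5 differences were smaller than before, and Cldn1 alone kept an unadjusted p under 0.05. Cldn5 differed by -0.89, Cldn8 and Cldn12 by -0.26 each and Ocln by -0.22. On this scale the median of the 9 members became 0.06 and that of all genes tested -0.17.

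Because Cldn5 is an endothelial gene, endothelial markers are given beside it. Of 17 tested, 0 passed after adjustment, and 7 were lower and 1 was higher at an unadjusted p under 0.05, with a median of -0.20. Of all genes, 6.83% were lower and 9.81% higher at that p. Mean levels of the list were 1.00 and 0.94 on the Myd88-/- arrays against 1.14 and 1.11 on the Myd88+/+ arrays. The transcription factors Sox18 (-0.66) and Sox17 (-0.57), the endothelial cadherin Cdh5 (-0.64) and the receptor Tie1 (-0.57) were among the 7. Pecam1, a defining marker of the endothelium, differed by -0.03, and Emcn, named after its value was seen as the one called higher, by 0.36. Tek (1.13), Kdr (0.34) and Plvap (0.18), also named after their values were seen, had differences above 0, with arrays that overlapped for Tek and Kdr but not for Plvap. Relative to the mean of the endothelial list, Cldn5 differed by -0.51, and the part of vessel content in its value was not tested further.

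**Figure D4:**
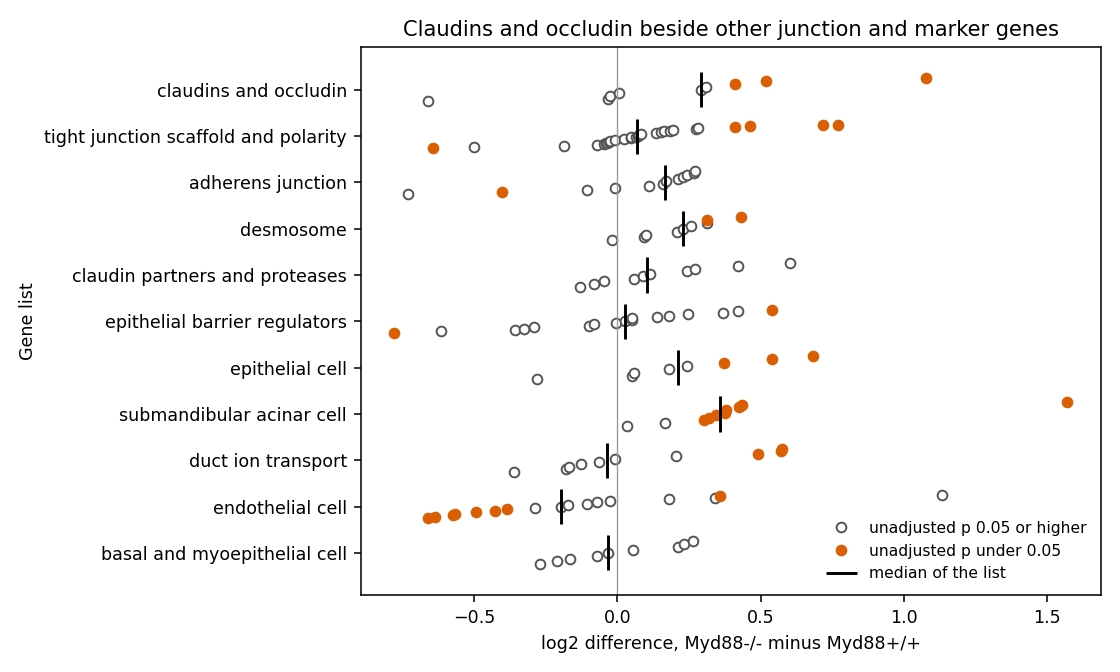
Log2 difference of Myd88-/- minus Myd88+/+ arrays for each tested gene of 11 lists; each point is 1 gene, filled where its unadjusted p is under 0.05, and the black bar is the median. Points of the claudins and occludin run from -0.66 to 1.08 around a median of 0.29, beside 0.21 for epithelial and 0.36 for SMG acinar markers and -0.20 for endothelial ones.

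The direction of Cldn1, Cldn3, Cldn4, Cldn5, Cldn7 and Cldn10 was the same in each alternative that could move the estimate, 10 for Cldn4 and 9 for each of the others, those relative to marker lists aside. The remaining alternatives change the test or the genes tested and leave these estimates as they were. Leaving out an array could not turn the sign of these genes, since their arrays did not overlap between the genotypes. Those alternatives thus show only how far the size moved. Leaving out single arrays, the difference ran from 0.83 to 1.33 for Cldn1, from 0.49 to 0.55 for Cldn10, from 0.32 to 0.50 for Cldn7 and from -0.95 to -0.37 for Cldn5. Cldn5 was thus the member that moved most with a single array, in absolute terms. Among the alternatives that could move it, Ocln kept its sign in 4 of 10, and Cldn8 and Cldn12 in 7 of 9.

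**Figure D5:**
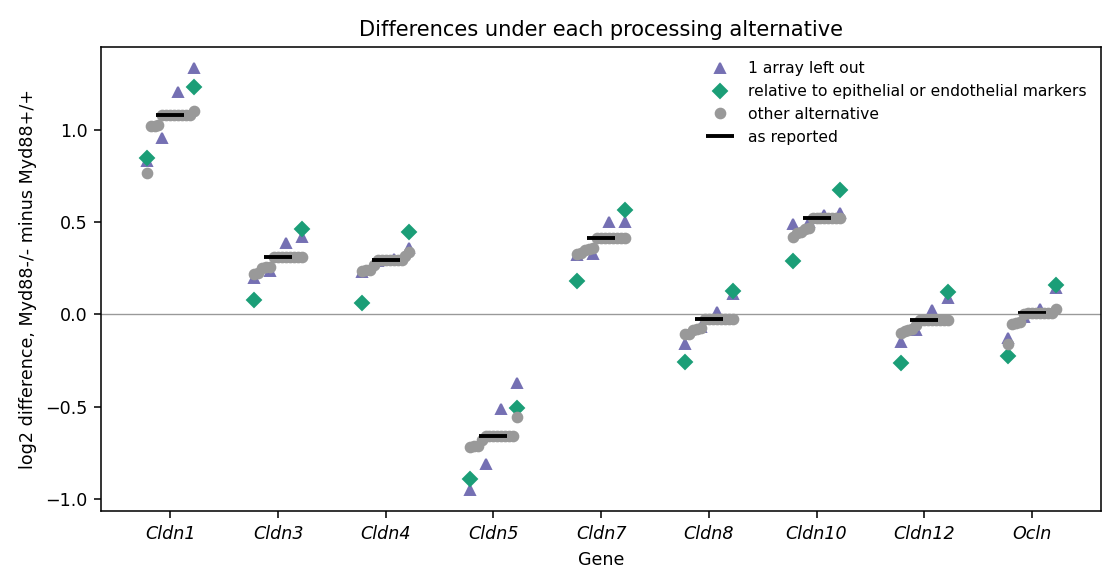
Log2 difference of Myd88-/- minus Myd88+/+ arrays for each tested member as reported (black bar) and under each alternative (symbols, sorted by value from left to right). Cldn1, Cldn3, Cldn4, Cldn7 and Cldn10 stay above 0 and Cldn5 below 0 in every alternative drawn. Leaving out an array could not turn the sign of these genes. Cldn8, Cldn12 and Ocln fall on both sides.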

How the data were processed

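Total RNA of SGs was hybridized as Cy3-labelled cRNA to 4 1-colour arrays. The authors deposited the scanner output of Agilent Feature Extraction 10.7.3.1, whose processed signal is an intensity corrected for background and spatial trends within the array, and not normalized across arrays. Uncorrected spot and local background intensity values were deposited as well, and deposited flags mark outlier, saturated and well-measured spots. Probe positions are those of the files (NCBI37/mm9). The processed table of all samples was set aside, since the names of its 4 value columns match no single sample.

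From these intensities, log2 values were taken minus the 75th percentile over 59305 non-control spots. Outlier spots (99 to 131 per array) were left out, and 0 spots were saturated. A probe was well above background where over a share of 0.5 of its spots were, and was tested when so on both arrays of at least 1 genotype. Each gene was read from its brightest tested probe. Genotypes were compared with limma 3.58.1 in R 4.3.3 (lmFit and eBayes, Benjamini-Hochberg over all genes, threshold 0.05). For Cldn19, each dim value was raised to the lowest level well above background on its array, where that was higher. The resulting fold is no lower bound. With 2 arrays against 2, an exact permutation test cannot give a p below 0.333, so none was run. The number of arrays limits the precision. On simulated data, only the size of the estimated differences was checked against the shifts put in, so this says nothing of calls. Promoter windows were searched with Python 3.11.15.

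Named were all members, tested claudins outside them, Myd88, the 3 patterns closest to the member with the largest difference, and up to 4 genes per list with an unadjusted p under 0.05, no overlap and the largest differences. Members and lists were chosen with earlier results of these data known. Alternatives were normexp background correction (offset 50), 4 other scalings, 2 other filters on dim probes, the mean of probes, outlier spots kept, the methods' t-test, trended and robust moderation, the replicate number as a block, and each array left out. A crossed block and scaling relative to epithelial or endothelial markers were added after seeing the data.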

Additional observations from a re-analysis of the deposited data

How the results depend on the processing

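Of the alternatives, 4 changed the count of genes past the adjusted threshold from 0, namely normexp background (79), median scaling (402), trended and robust moderation (482) and the methods' t-test (1). The third of these also called 1 member, Cldn10, with an adjusted p of 0.0387, where its values over the alternatives ran from there to 1.00. Under median scaling limma shared 1 variance among all genes, and 0 members had an unadjusted p under 0.05. The median of the members was 0.15 without the filter on dim probes, where Cldn2 entered, 0.062 relative to the epithelial markers and 0.45 relative to the endothelial markers. Under the same alternatives, the median of all genes tested was 0.12, -0.17 and 0.21. Genes with an unadjusted p under 0.05 were higher in 59.0% of cases, but in 48.7% with quantile normalization, 46.7% with the 75th percentile over detected probes, 41.5% with cyclic loess and 24.1% with median scaling. With each array left out, the members' median ran from 0.20 to 0.36, and 0 genes and 0 members were called.

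Ocln turned negative with the 75th percentile over detected probes (-0.051), median scaling (-0.046), cyclic loess (-0.044), the mean of its probes (-0.16), without Myd88-/- array 1 (-0.13), without Myd88+/+ array 1 (-0.016; up to 0.14 without other arrays) and relative to the epithelial markers (-0.22). Cldn8 turned positive without Myd88-/- array 1 (0.013), without Myd88+/+ array 2 (0.11) and relative to the endothelial markers (0.13), as did Cldn12 (0.088, 0.023 and 0.12), whose lowest value with an array left out was -0.15, against -0.16 for Cldn8. The cause was not tested.

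Whether the replicate numbers pair the arrays cannot be told. Deviations of same-numbered arrays correlated at -0.37, but with 2 arrays per genotype these deviations are equal and opposite, so this is a single contrast. With the replicate number as a block, 0 genes and 0 members were called, the members' median stayed 0.29, and Cldn1 and Cldn10 kept an unadjusted p under 0.05. With the crossed pairing as a block, 0 genes and 0 members were called. Both Cldn2 probes were not well above background on Myd88-/- array 1 and Myd88+/+ array 2. Those are the arrays with the smaller shares of probes well above background, 52.2% and 55.1%. What limited the dim probes there was not tested.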
